A study of Homo sapiens with 12 samples.

Results

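The cytosolic translation initiation and elongation factors were followed in cultured human keratinocytes that had received 1 of 4 siRNAs. Members were the protein-coding genes whose symbol starts with EIF1 to EIF6, EEF1 or EEF2, leaving out the eIF2 kinases, which carry the symbol EIF2AK. The rule found 67 of the 58735 genes in the authors' table, 19951 of which are protein-coding, and 62 of the 67 had counts high enough to be tested. The cells were N/TERT-2G, an established line of immortalised skin keratinocytes. Wells of 6-well plates were transfected with 100 pmol of siRNA against ATF3 (which encodes a transcription factor of the stress response), APOE (an apolipoprotein) or CXCL14 (a chemokine), or with a negative control siRNA, and all 4 groups received the same lipid reagent and a change of medium after 6 h. Each group holds 3 libraries of poly-A selected RNA, 12 in all. The siRNA sequences, the time of harvest and whether replicates were separate cultures are not given in the sources used here, so the spread behind each p-value is that of libraries and may be technical. A single line and, for all the labels say, a single siRNA per target limit each group as a model.

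Protein synthesis starts when eIF2 brings the initiator tRNA to the small ribosomal subunit, eIF3 holds the initiation complex together, and the eIF4 group recruits the capped mRNA; eIF2B recharges eIF2 with GTP and is the step that stress kinases block. The 4E-binding proteins compete with eIF4G for the cap-binding protein eIF4E and release it when mTOR phosphorylates them. During elongation eEF1A delivers aminoacyl-tRNA, the eEF1B subunits recharge it, eEF2 moves the ribosome along, and eIF5A helps at slow codons. The mRNAs of several of these factors belong to the 5′ terminal oligopyrimidine (TOP) class, which starts with an unbroken run of C and T and is translated under the control of mTOR and LARP1.

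Between 16225691 and 22246755 counts were obtained per library. The limit that a count of 0 allows, 3 counts, was therefore 0.136 to 0.191 CPM (counts scaled to library size) and covers counting error only. The targeted transcripts fell in the groups named for them: ATF3 was at 28.5% and APOE at 5.99% of the control mean, and CXCL14 had 2 counts over 3 libraries with its siRNA, against 24 in control. The CXCL14 call rests on these few counts (adjusted p = 0.0143 in edgeR's quasi-likelihood test) and was lost without control library 3 (0.0523) or CXCL14 library 3 (0.0579). The targets also moved in other groups. CXCL14 averaged 8.56 CPM with APOE siRNA and 0.819 CPM with ATF3 siRNA, against 0.490 CPM in control. ATF3 averaged 68.3 CPM with CXCL14 siRNA and 41.9 CPM with APOE siRNA, against 42.2 CPM in control. APOE averaged 5.88 CPM with CXCL14 siRNA and 3.88 CPM with ATF3 siRNA, against 3.18 CPM in control. The groups thus differ in more than the named target, and the part of this in the results below was not tested. All 5 keratinocyte markers (KRT5, KRT14, TP63, ITGA6 and COL17A1) were between 155 and 18536 CPM in all libraries. Their summed level was 24795 to 26780 CPM with ATF3 siRNA, 31179 to 33498 CPM with APOE siRNA, 16114 to 16746 CPM with CXCL14 siRNA and 22862 to 25544 CPM in control, so that APOE siRNA lay above and CXCL14 siRNA below control with no overlap. Of 16 markers of other cell types (fibroblast, melanocyte, immune and endothelial), 15 stayed at or below 2.12 CPM, and TYR, PTPRC, CD3E and LYZ were at 0 throughout. The exception was the collagen gene COL1A1; the other 4 fibroblast markers stayed at or below 0.274 CPM. The summed fibroblast marker level was 32.5 to 40.7 CPM with ATF3 siRNA, 73.7 to 87.3 CPM with APOE siRNA, 13.7 to 17.1 CPM with CXCL14 siRNA and 25.4 to 34.1 CPM in control. It too was above control with APOE siRNA and below it with CXCL14 siRNA. The part of these marker shifts in the results below was not tested.

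The TOP feature can be looked for at the annotated start sites, and some of the factors carry it there. The lines below give 20 bases before and 20 bases from the annotated transcript start in RefSeq (GRCh38.p14), on the strand of the gene, with the longest run of C and T in capitals. They are shown because the first 4 are the starts with such a run across them among the 5 genes on a literature list of TOP mRNAs that have an entry, EIF2S3 is a strongly changed gene with such a run that the list does not hold, and EIF2B5 is a strongly changed gene without one across its start.
EEF1A1, chr6:73521013-73521052, minus strand: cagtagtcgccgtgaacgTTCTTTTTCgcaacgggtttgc
EEF2, chr19:3985444-3985483, minus strand: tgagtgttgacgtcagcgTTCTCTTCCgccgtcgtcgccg
EEF1B2, chr2:206159875-206159914, plus strand: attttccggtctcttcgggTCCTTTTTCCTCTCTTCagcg
EIF3F, chr11:7987317-7987356, plus strand: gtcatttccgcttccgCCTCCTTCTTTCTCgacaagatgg
EIF2S3, chrX:24054936-24054975, plus strand: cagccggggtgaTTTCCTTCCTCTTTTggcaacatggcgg
EIF2B5, chr3:184135338-184135377, plus strand: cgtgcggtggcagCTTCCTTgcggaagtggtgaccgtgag
The fifth gene of that list with an entry, EEF1G, has a run of 11 bases in this window but none that crosses its annotated start, and a second annotated start of EEF1B2 (chr2:206159589-206159628) has none across it either. A pyrimidine run of at least 9 bases that crossed the annotated start was present in 10 of the 53 members with an entry (EEF1A1, EEF1B2, EEF2, EIF2A, EIF2S3, EIF2S3B, EIF3D, EIF3F, EIF3K and EIF3M). Over all 15843 genes with an entry the share was 4.96%. This is a count of letters at annotated starts and says nothing of where these cells start transcription.

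Levels are given as FPKM, the count scaled to library size and to gene length in kilobases, and a gene was called where its adjusted p was under 0.05 in edgeR's quasi-likelihood test, with Benjamini-Hochberg adjustment over all 14920 genes tested and no fold limit. With ATF3 siRNA 11 members rose and 3 fell, so that 22.6% of the 62 were called, against a background of 20.4% of all genes called. With APOE siRNA 20 rose and 15 fell, or 56.5% of members against a background of 44.8%. With CXCL14 siRNA 22 rose and 13 fell, which is also 56.5% of members, against a background of 55.8%. With ATF3 and CXCL14 siRNA the share of members called was thus close to that of all genes. Against the background in each direction (11.2% higher and 9.14% lower with ATF3 siRNA, 22.3% and 22.5% with APOE siRNA, 27.4% and 28.4% with CXCL14 siRNA), 17.7% of members rose and 4.84% fell with ATF3 siRNA, 32.3% rose and 24.2% fell with APOE siRNA, and 35.5% rose and 21.0% fell with CXCL14 siRNA. The share that rose was thus above that of all genes in each comparison, and the share that fell was below it with ATF3 and CXCL14 siRNA and slightly above it with APOE siRNA. The share that fell with ATF3 siRNA rests on 3 members, and 6 were called lower with DESeq2 size factors or library size alone. Its place below the 9.14% of all genes therefore depends on the setting. With ATF3, APOE and CXCL14 siRNA the median size of a called change was 0.31, 0.39 and 0.38 (log2) for members. Over all genes called it was larger, at 0.39, 0.51 and 0.60. Members were not matched to all genes by level. The median log2 fold change of the members was 0.08, 0.09 and 0.09 in that order, and the median of all genes tested was 0.003, 0.012 and 0.013. In these bulk samples fewer cells of a kind and less RNA per cell cannot be told apart. The 3 comparisons share the control libraries, so their likeness to each other is no result. Whether reads were counted by strand is not named in the labels, so reads of a gene and of one that overlaps it on the opposite strand cannot be told apart. Exon bases shared with other genes, all or most of them on the opposite strand, came to 24.2% for EIF4E2, 23.6% for EIF2B2, 19.1% for EEF1AKMT3, 15.55% for EIF2B1 and 10.8% for EIF5B.

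**Figure D1:**
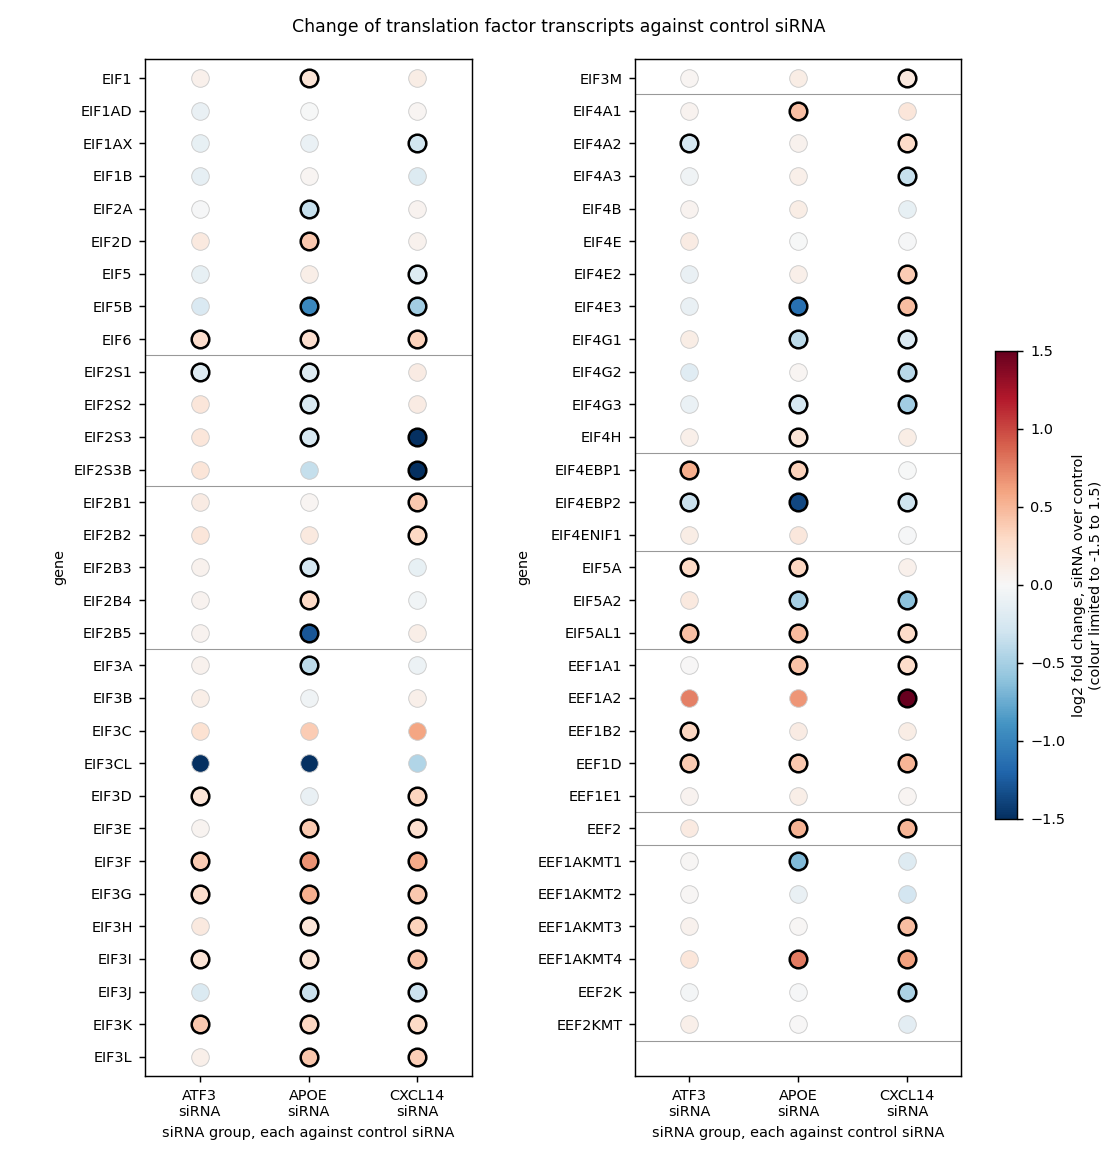
Log2 fold change of each tested member against control siRNA (colour, limited to -1.5 to 1.5), with columns for ATF3, APOE and CXCL14 siRNA and genes grouped by role; a black outline marks an adjusted p under 0.05. Most outlined changes are below 1 on the log2 scale, and outlined falls past 1 are those of EIF2S3 and EIF2S3B with CXCL14 siRNA and of EIF2B5, EIF4E3 and EIF4EBP2 with APOE siRNA.

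Of the 62 tested members, 0 had a called change of at least 1 on the log2 scale with ATF3 siRNA, 3 with APOE siRNA and 3 with CXCL14 siRNA. Over all 14920 genes tested, 275, 1203 and 2160 had such a change in that order. Those with CXCL14 siRNA were EIF2S3, its copy EIF2S3B and the low gene EEF1A2 among the members. Over the 3 comparisons, EEF1D, EIF3F, EIF3G, EIF3I, EIF3K, EIF5AL1 and EIF6 were called higher in each, and EIF4EBP2 was called lower in each. EEF1A1, EEF2, EIF3E, EIF3H, EIF3L and EEF1AKMT4 were called higher with APOE and CXCL14 siRNA. EIF2S3, EIF3J, EIF4G1, EIF4G3, EIF5A2 and EIF5B were called lower with those same siRNAs. EIF4A2 was called lower with ATF3 siRNA and higher with CXCL14 siRNA, and EIF4E3 lower with APOE siRNA and higher with CXCL14 siRNA. A group of 12 members was called in none of the 3, among them EIF4E, the cap-binding protein itself. The share of all genes with each of these patterns was not counted, and the 3 comparisons share their control libraries. The patterns are therefore a listing and no result about the members.

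The falls with ATF3 siRNA depended on the setting: the 3 members EIF4EBP2, EIF4A2 and EIF2S1 were called lower, but 6 were with DESeq2 size factors, with 11 called higher, and likewise 6 with library size alone, with 9 called higher. The genes added under those scalings were EIF3J, EIF4G2 and EIF5B; EIF5B missed the threshold in the first fit with an adjusted p of 0.0539. Leaving out control library 3 also gave 6, where the genes added were EIF3CL, EIF4G2 and EIF5B. Several small ATF3 siRNA calls rested on single libraries. EEF1B2 lost its call without control library 3, ATF3 library 1 or ATF3 library 2 (adjusted p 0.0585 to 0.0630). EIF3D lost it without any control library, APOE library 2 or ATF3 library 1 (0.0507 to 0.144), and EIF3I without those or ATF3 library 2 or CXCL14 library 2 (0.0507 to 0.117). EIF2S1 lost it without control library 1 or 2, ATF3 library 2 or 3, CXCL14 library 2 or 3, or any APOE library (0.0513 to 0.211).

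Among the subunits of eIF2, the GTPase that carries initiator tRNA, the gamma subunit gene EIF2S3 (ENSG00000130741, hg38 chrX:24054716-24077971) fell strongly with CXCL14 siRNA. Its level was 17.98, 15.6 and 15.4 FPKM in the CXCL14 siRNA libraries, against 57.2, 53.6 and 53.9 FPKM in control. These groups lie far apart, and the level was 29.7% of control (log2 fold change -1.75 ± 0.07 SE, adjusted p = 1.96e-11). With APOE siRNA it was 46.9, 43.7 and 47.6 FPKM, a small fall (-0.25 ± 0.07, adjusted p = 0.00727), and with ATF3 siRNA 66.0, 61.5 and 59.8 FPKM, all above control but short of the threshold (0.19 ± 0.07, adjusted p = 0.0700). Direct tests set the CXCL14 siRNA group apart from both others: EIF2S3 was higher by 1.94 ± 0.07 with ATF3 siRNA than with CXCL14 siRNA (adjusted p = 9.55e-12) and higher by 1.497 ± 0.07 with APOE siRNA than with CXCL14 siRNA (adjusted p = 7.60e-11).

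EIF2S3B, a copy of the same subunit gene on chromosome 12, was counted at a far lower level, with 0.457, 0.517 and 0.392 FPKM with CXCL14 siRNA and 1.15, 1.33 and 1.53 FPKM in control (-1.56 ± 0.22, adjusted p = 1.94e-05). Of its 50-base windows, 26.8% also occur in EIF2S3, so the counting could have split reads between the copies and its value is uncertain. The alpha subunit gene EIF2S1, which encodes the subunit that stress kinases phosphorylate, was at 22.2, 22.3 and 22.8 FPKM with APOE siRNA and 27.9, 25.0 and 24.5 FPKM in control. That fall was small (-0.20 ± 0.07, adjusted p = 0.0191) and lost its call without control library 1 (adjusted p = 0.109), APOE library 1 (0.0578) or APOE library 2 (0.0539). The value of EIF2S1 with ATF3 siRNA was of like size (-0.20 ± 0.07, adjusted p = 0.0439), and with CXCL14 siRNA it was 0.12 ± 0.06 (adjusted p = 0.136). The beta subunit gene EIF2S2 fell with APOE siRNA, at 84.8, 84.2 and 91.1 FPKM, against 106, 104 and 97.8 FPKM in control (-0.24 ± 0.07, adjusted p = 0.0109). With APOE siRNA, 3 of the 4 genes in the eIF2 group were thus called lower, beside 22.5% of all genes. With CXCL14 siRNA 2 of 4 were, beside 28.4% of all genes. Those 2 were EIF2S3 and EIF2S3B, whose reads may be split, so they may not be separate changes. EIF2S1 and EIF2S2 were not called there.

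Of the 5 subunits of eIF2B, the exchange factor for eIF2, the catalytic epsilon subunit gene EIF2B5 (ENSG00000145191, hg38 chr3:184135038-184146112) changed most. It was at 3.60, 3.62 and 3.22 FPKM with APOE siRNA, against 8.62, 8.31 and 8.54 FPKM in control. The APOE siRNA libraries were at 41.0% of control with no overlap (-1.29 ± 0.07, adjusted p = 9.32e-10). With ATF3 siRNA (8.69, 9.36 and 8.44 FPKM) and CXCL14 siRNA (9.04, 8.91 and 9.26 FPKM) it did not pass the test (adjusted p = 0.591 and 0.225). The direct differences were 1.34 ± 0.07 for ATF3 over APOE siRNA (adjusted p = 6.52e-10) and -1.38 ± 0.07 for APOE over CXCL14 siRNA (adjusted p = 9.85e-11).

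The other eIF2B subunits moved less and not all in the same direction. The delta subunit gene EIF2B4 rose with APOE siRNA, with 6.32, 6.54 and 6.96 FPKM, against 5.40, 5.03 and 5.66 FPKM in control (0.30 ± 0.07, adjusted p = 0.00392). With ATF3 siRNA its change was 0.05 ± 0.08 (adjusted p = 0.662) and with CXCL14 siRNA -0.06 ± 0.08 (adjusted p = 0.542). The alpha and beta subunit genes rose with CXCL14 siRNA, EIF2B1 by 0.41 ± 0.08 (adjusted p = 0.000251) and EIF2B2 by 0.31 ± 0.08 (adjusted p = 0.00366). The gamma subunit gene EIF2B3 fell by 0.26 ± 0.09 with APOE siRNA (adjusted p = 0.0268), a call that was lost without control library 1 or 3 or APOE library 1 or 2 (0.0628 to 0.107).

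**Figure D2:**
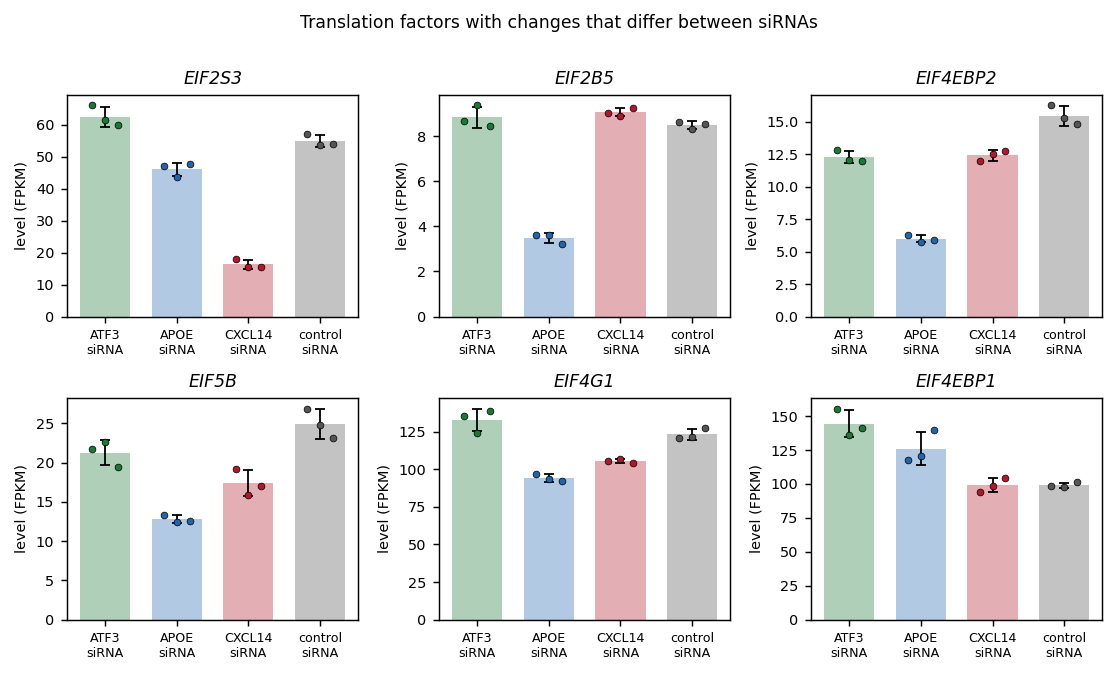
Level in FPKM of EIF2S3, EIF2B5, EIF4EBP2, EIF5B, EIF4G1 and EIF4EBP1 in each library (points), with group mean (bar) and SD (error bar, n = 3), for ATF3, APOE, CXCL14 and control siRNA. EIF2S3 is lowest with CXCL14 siRNA (15.4 to 17.98 FPKM, against 53.6 to 57.2 in control), and EIF2B5, EIF4EBP2 and EIF5B are lowest with APOE siRNA.

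Among the factors that act at scanning, start-codon choice and subunit joining, EIF5B fell most. EIF5B, the GTPase that joins the large ribosomal subunit, was at 13.4, 12.4 and 12.6 FPKM with APOE siRNA and 19.2, 15.9 and 17.1 FPKM with CXCL14 siRNA, against 26.9, 24.9 and 23.1 FPKM in control. The APOE siRNA libraries were at 51.3% of control (-0.96 ± 0.08, adjusted p = 1.16e-07) and the CXCL14 siRNA libraries at 69.7% (-0.52 ± 0.08, adjusted p = 4.23e-05); neither group overlapped control. With ATF3 siRNA it was at 21.7, 22.6 and 19.5 FPKM (-0.23 ± 0.08, adjusted p = 0.0539), and ATF3 over APOE siRNA differed by 0.73 ± 0.08 (adjusted p = 2.96e-06).

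EIF6, which keeps free large subunits from joining small ones, rose in all 3 siRNA groups. Its level was 137, 133 and 137 FPKM with ATF3 siRNA, 131, 132 and 141 FPKM with APOE siRNA and 136, 143 and 151 FPKM with CXCL14 siRNA, against 108, 113 and 118 FPKM in control. No siRNA library overlapped the control range, and the changes were 0.27 ± 0.06, 0.26 ± 0.06 and 0.35 ± 0.06 (adjusted p = 0.00546, 0.00274 and 0.000142). Of its coding bases 33.3%, and of all its exon bases 17.4%, are shared with a second gene annotated on the same strand. EIF2D, which can place tRNA on the ribosome without eIF2, rose with APOE siRNA (5.78, 5.95 and 6.27 FPKM, against 4.66, 4.44 and 4.49 FPKM in control; 0.40 ± 0.07, adjusted p = 0.000123). EIF2A, a separate tRNA-binding factor despite its name, fell with APOE siRNA (16.2, 16.3 and 16.9 FPKM, against 20.7, 21.0 and 21.2 FPKM; -0.35 ± 0.08, adjusted p = 0.00177). EIF1, which guards start-codon choice, was 0.21 ± 0.06 higher with APOE siRNA (adjusted p = 0.0121), a call lost without control library 2 (0.0556) or APOE library 3 (0.0884). With CXCL14 siRNA EIF1AX, its partner in scanning, fell by 0.29 ± 0.08 (adjusted p = 0.00432), and EIF5, which activates the GTPase of eIF2, fell by 0.21 ± 0.06 (adjusted p = 0.00994; 0.0535 without CXCL14 library 2).

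The eIF3 subunits, which form the scaffold of the initiation complex, rose more often than they fell. Of the 14 tested genes, 5 rose with ATF3 siRNA, 7 rose and 2 fell with APOE siRNA, and 9 rose and 1 fell with CXCL14 siRNA. As shares, 35.7%, 50.0% and 64.3% rose in that order, beside 11.2%, 22.3% and 27.4% of all genes, and 0%, 14.3% and 7.14% fell, beside 9.14%, 22.5% and 28.4% of all genes. EIF3F had the largest rise among them with APOE siRNA: it was at 21.7, 22.5 and 24.4 FPKM with APOE siRNA, 18.6, 18 and 19.1 FPKM with ATF3 siRNA and 20.3, 21.2 and 22.1 FPKM with CXCL14 siRNA, against 13.9, 13.98 and 15.1 FPKM in control. All 9 siRNA libraries lay above all control libraries. The change was 0.38 ± 0.06 with ATF3 siRNA (adjusted p = 0.000624), 0.68 ± 0.06 with APOE siRNA (adjusted p = 3.61e-07) and 0.57 ± 0.06 with CXCL14 siRNA (adjusted p = 1.31e-06), and ATF3 siRNA was lower than APOE siRNA by 0.30 ± 0.06 (log2 fold change -0.30, adjusted p = 0.00122).

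EIF3G, which binds mRNA, was at 49.0, 50.0 and 47.8 FPKM with ATF3 siRNA, 56.1, 58.9 and 62.3 FPKM with APOE siRNA and 51.7, 53.0 and 56.6 FPKM with CXCL14 siRNA, against 38.7, 41.1 and 42.2 FPKM in control. It too stood above the control range in all 9 siRNA libraries (0.27 ± 0.06, 0.54 ± 0.06 and 0.40 ± 0.06; adjusted p = 0.00647, 3.24e-06 and 3.86e-05). EIF3K, a peripheral subunit, rose by 0.41 ± 0.06, 0.32 ± 0.06 and 0.30 ± 0.06 in the same order (adjusted p = 0.000279, 0.000536 and 0.000658). EIF3I, a core subunit, was at 150, 153 and 166 FPKM with CXCL14 siRNA, against 116, 114 and 116 FPKM in control (0.44 ± 0.07, adjusted p = 3.23e-05); its APOE siRNA call (0.21 ± 0.07, adjusted p = 0.0177) was lost without control library 2 or 3 or APOE library 3 (0.0504 to 0.131). EIF3D, a subunit able to bind the cap of some mRNAs, rose with CXCL14 siRNA (61.4, 62.6 and 65.8 FPKM, against 50.3, 50.3 and 49.7 FPKM; 0.34 ± 0.06, adjusted p = 0.000251).

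The falls within eIF3 concerned EIF3A and EIF3J. EIF3A, the large scaffold subunit, was at 50.8, 48.8 and 48.1 FPKM with APOE siRNA, against 67.7, 64.4 and 62.0 FPKM in control (-0.39 ± 0.07, adjusted p = 0.000202). EIF3J, a loosely attached subunit, was at 21.8, 21.4 and 22.4 FPKM with APOE siRNA and 23.4, 20.5 and 22.2 FPKM with CXCL14 siRNA, against 28.7, 27.8 and 26.3 FPKM in control (-0.34 ± 0.08 and -0.33 ± 0.08; adjusted p = 0.00214 and 0.00186). EIF3L rose with APOE siRNA (0.41 ± 0.08, adjusted p = 0.000311) and CXCL14 siRNA (0.37 ± 0.08, adjusted p = 0.000529), but 41.1% of its exon bases are shared with another gene annotated on the same strand. EIF3M rose by 0.16 ± 0.06 with CXCL14 siRNA (adjusted p = 0.0321), and leaving out any control library, APOE library 2 or 3, or CXCL14 library 1 or 3 ended the call (0.0503 to 0.134). EIF3B, the other core RNA-binding subunit, passed in none of the 3 comparisons, with 30.5 to 43.7 FPKM over the 12 libraries.

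**Figure D3:**
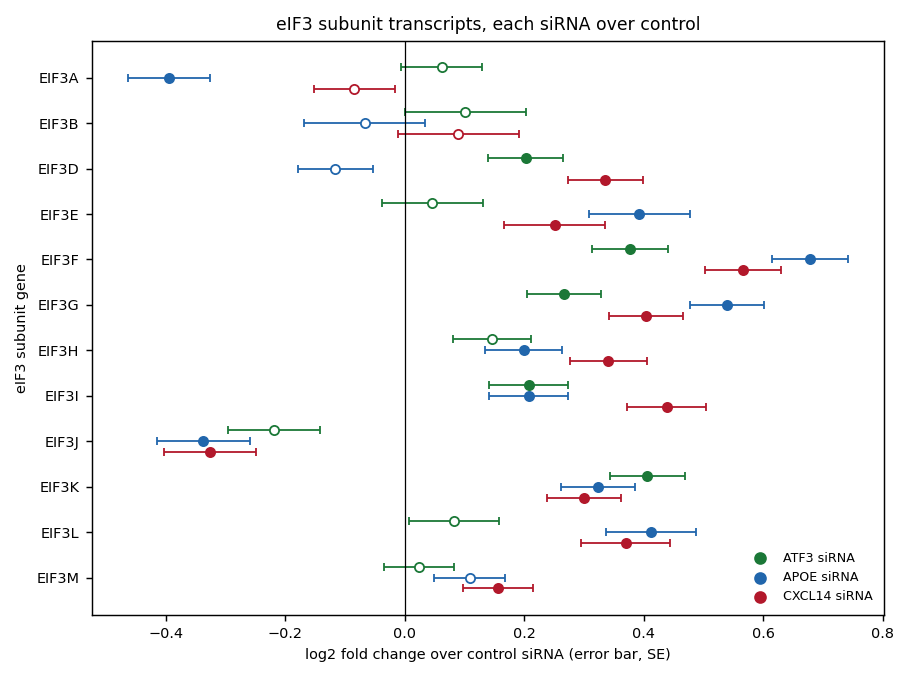
Log2 fold change (point) and SE (error bar) of each eIF3 subunit gene for ATF3, APOE and CXCL14 siRNA over control; filled points have an adjusted p under 0.05, and EIF3C and EIF3CL are left out because they share sequence. EIF3F, EIF3G, EIF3I and EIF3K lie right of 0 and are filled for all 3 siRNAs, and EIF3J lies left of 0 for all 3.

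EIF3C and EIF3CL could not be told apart. Of the 50-base windows of EIF3CL, 97.2% also occur in EIF3C. EIF3CL was listed at 12.1 FPKM in CXCL14 library 3 and 17.6 FPKM in control library 2, against 1.36 to 2.66 FPKM in the other libraries. It was called lower with ATF3 siRNA without a filter, without control library 3 and without CXCL14 library 3. In the first fit neither gene passed the test in any comparison with control. Their summed level was 42.3 ± 9.39 CPM with ATF3 siRNA, 47.6 ± 22.3 CPM with APOE siRNA, 63.4 ± 10.3 CPM with CXCL14 siRNA and 53.4 ± 31.9 CPM in control (SD, n = 3 each), with a wide spread within groups.

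At the cap, scaffold genes fell with APOE and CXCL14 siRNA, and the gene of the cap-binding protein passed the test in no comparison with control. EIF4E was at 5.14, 4.95 and 4.17 FPKM with ATF3 siRNA, 4.50, 4.10 and 4.39 FPKM with APOE siRNA and 4.70, 3.90 and 4.29 FPKM with CXCL14 siRNA, against 4.44, 4.39 and 4.25 FPKM in control. All 3 groups overlapped control (0.13 ± 0.08, -0.01 ± 0.08 and -0.02 ± 0.08; adjusted p = 0.325, 0.933 and 0.837). EIF4G1, the main scaffold that links eIF4E to eIF3, was at 97.2, 93.8 and 92.0 FPKM with APOE siRNA and 106, 107 and 104 FPKM with CXCL14 siRNA, against 121, 122 and 128 FPKM in control. Both groups lay below control (-0.39 ± 0.06 and -0.22 ± 0.06; adjusted p = 4.66e-05 and 0.00355). With ATF3 siRNA EIF4G1 overlapped control at 136, 124 and 139 FPKM (0.11 ± 0.06, adjusted p = 0.212), and ATF3 over APOE siRNA differed by 0.49 ± 0.06 (adjusted p = 5.02e-06).

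EIF4G3, a second scaffold, fell with CXCL14 siRNA (8.32, 8.08 and 7.69 FPKM, against 12.2, 11.1 and 11.4 FPKM in control; -0.53 ± 0.06, adjusted p = 2.01e-06) and less with APOE siRNA (-0.26 ± 0.06, adjusted p = 0.00225). EIF4G2, a relative that lacks the eIF4E-binding site, fell with CXCL14 siRNA (97.5, 93.6 and 95.5 FPKM, against 138, 124 and 122 FPKM; -0.42 ± 0.06, adjusted p = 3.44e-05). Of the helicases that unwind leaders, EIF4A2 was at 30.2, 32.8 and 28.8 FPKM with ATF3 siRNA and 47.0, 42.5 and 45.1 FPKM with CXCL14 siRNA, against 37.0, 37.3 and 35.8 FPKM in control. The changes were opposite in sign (-0.26 ± 0.06, adjusted p = 0.00751, and 0.29 ± 0.06, adjusted p = 0.000810), and the direct difference of ATF3 over CXCL14 siRNA was -0.55 ± 0.06 (adjusted p = 1.45e-06). EIF4A3, which marks exon junctions instead, fell with CXCL14 siRNA (15.6, 16.6 and 16.5 FPKM, against 20.5, 20.03 and 21.5 FPKM; -0.35 ± 0.06, adjusted p = 0.000118). EIF4E2, a cap-binding relative linked to repression, rose with CXCL14 siRNA (11.7, 11.9 and 12.1 FPKM, against 9.44, 8.88 and 9.05 FPKM; 0.38 ± 0.07, adjusted p = 0.000210). EIF4H, a helper of the helicase, rose with APOE siRNA (0.21 ± 0.06, adjusted p = 0.00597).

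EIF4E3 and EIF4A1 carry counting limits. EIF4E3 was low, at 0.210, 0.249 and 0.266 FPKM with APOE siRNA and 0.714, 0.844 and 0.646 FPKM with CXCL14 siRNA, against 0.639, 0.553 and 0.397 FPKM in control (-1.14 ± 0.19, adjusted p = 0.000177, and 0.47 ± 0.17, adjusted p = 0.0283). With CXCL14 siRNA the adjusted p became 0.0526 without control library 2, 0.148 without control library 3 (log2 fold change 0.30) and 0.127 without CXCL14 library 2. Of the coding bases of EIF4E3 84.4% lie in a second annotated gene, but only 6.85% of all its exon bases do. EIF4A1, the main helicase gene, was listed at 1.95, 1.76 and 1.52 FPKM with APOE siRNA and 1.46, 1.06 and 1.31 FPKM in control. Of its coding bases 86.8%, and of all its exon bases 48.6%, lie in other annotated genes, such as the read-through gene SENP3-EIF4A1. These levels therefore hold only the reads that were assigned to EIF4A1. Its rise with APOE siRNA (0.45 ± 0.15, adjusted p = 0.0248) was lost without control library 2 or 3 or APOE library 1 or 2 (0.0563 to 0.125).

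The 4E-binding proteins moved apart. EIF4EBP1 was at 156, 136 and 141 FPKM with ATF3 siRNA and 117, 121 and 140 FPKM with APOE siRNA, against 98.5, 97.7 and 101 FPKM in control. Both groups lay above control (0.54 ± 0.07, adjusted p = 9.96e-05, and 0.34 ± 0.07, adjusted p = 0.00139), and for ATF3 siRNA this was the smallest adjusted p among the members. With CXCL14 siRNA it overlapped control at 94.3, 98.2 and 104 FPKM (adjusted p = 0.983), and ATF3 over CXCL14 siRNA differed by 0.55 ± 0.07 (adjusted p = 1.19e-05).

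EIF4EBP2 (ENSG00000148730, hg38 chr10:70404379-70428618) was at 6.27, 5.74 and 5.92 FPKM with APOE siRNA, 12.9, 12.1 and 11.99 FPKM with ATF3 siRNA and 11.97, 12.5 and 12.8 FPKM with CXCL14 siRNA, against 16.3, 15.3 and 14.8 FPKM in control. All 9 siRNA libraries lay below control, those with APOE siRNA by far the lowest, at 38.7% of control (-1.37 ± 0.07, adjusted p = 2.33e-10). The falls with ATF3 and CXCL14 siRNA were -0.33 ± 0.06 (adjusted p = 0.00161) and -0.31 ± 0.06 (adjusted p = 0.000441). APOE siRNA differed from both: ATF3 over APOE siRNA was 1.04 ± 0.06 (adjusted p = 5.46e-09) and APOE over CXCL14 siRNA -1.06 ± 0.06 (adjusted p = 1.10e-09). The last family member, EIF4EBP3, was counted too low to be tested, at 0 to 0.350 FPKM. Of its exon bases 73.4% lie in the gene ANKHD1-EIF4EBP3 on the same strand, so this level holds only the reads assigned to EIF4EBP3. EIF4ENIF1, which carries eIF4E into the nucleus, was at 3.13 to 3.96 FPKM over the 12 libraries and passed in none of the 3 comparisons with control.

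The elongation factors were the most abundant members. By control level per length, EEF1A1 ranked 19 and EEF2 ranked 32 of 12665 protein-coding genes tested. EEF1A1 was at 1582, 1550 and 1675 FPKM with APOE siRNA and 1420, 1404 and 1495 FPKM with CXCL14 siRNA, against 1262, 1159 and 1138 FPKM in control. Both groups stood above control (0.43 ± 0.06, adjusted p = 4.44e-05, and 0.28 ± 0.06, adjusted p = 0.00152). With ATF3 siRNA the level was 1274, 1167 and 1135 FPKM, which overlapped control (0.01 ± 0.06, adjusted p = 0.957). EEF2 was at 1092, 1107 and 1177 FPKM with APOE siRNA and 1064, 1134 and 1174 FPKM with CXCL14 siRNA, against 763, 781 and 815 FPKM in control. The rise was 0.52 ± 0.06 in both (adjusted p = 5.86e-06 and 3.28e-06), while with ATF3 siRNA EEF2 was at 864, 812 and 909 FPKM (0.13 ± 0.06, adjusted p = 0.155). In the direct tests EEF1A1 and EEF2 were lower with ATF3 siRNA than with APOE siRNA (-0.43 ± 0.06 and -0.38 ± 0.06; adjusted p = 6.54e-05 and 0.000137), and EEF2 was lower with ATF3 siRNA than with CXCL14 siRNA (-0.38 ± 0.06, adjusted p = 7.62e-05).

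EEF1D, an exchange subunit for eEF1A, rose in all 3 groups. It was at 20.6, 18.3 and 19.8 FPKM with ATF3 siRNA, 19.9, 20.6 and 18.5 FPKM with APOE siRNA and 20.8, 21.9 and 20.7 FPKM with CXCL14 siRNA, against 14.6, 15.6 and 14.4 FPKM in control (0.39 ± 0.07, 0.41 ± 0.07 and 0.51 ± 0.07; adjusted p = 0.000497, 9.45e-05 and 5.60e-06). Of the exon bases of EEF1D 34.0% overlap genes on the opposite strand, so its values are uncertain. EEF1B2, the other exchange subunit with a tested gene, was at 136, 131 and 105 FPKM with ATF3 siRNA and 102, 102 and 94.6 FPKM in control (0.32 ± 0.08, adjusted p = 0.0127; 0.0589 without control library 3, 0.0630 without ATF3 library 1 and 0.0585 without ATF3 library 2). EEF1A2, the muscle and nerve form of eEF1A, stayed between 0.0372 and 0.230 FPKM. Its nominal rise with CXCL14 siRNA (1.57 ± 0.49, adjusted p = 0.0116) was lost without control library 2 (0.0572) or CXCL14 library 3 (0.0507). EEF1G was listed with 1 count in all 12 libraries together, and 100% of its coding bases lie in a second gene annotated on the same strand, so its level was not measured here.

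On the literature list of TOP mRNAs (EEF1A1, EEF1B2, EEF1D, EEF1G, EEF2, EIF3E, EIF3F and EIF3H) 7 genes were tested. Of these 3 rose with ATF3 siRNA, 6 with APOE siRNA and 6 with CXCL14 siRNA, or 42.9%, 85.7% and 85.7%, beside 11.2%, 22.3% and 27.4% of all genes called higher. Their median log2 fold change was 0.15, 0.41 and 0.34, beside 0.08, 0.09 and 0.09 over all members tested and 0.003, 0.012 and 0.013 over all genes tested. EIF3E was at 41.5, 39.4 and 43.5 FPKM with APOE siRNA, against 34.7, 30.6 and 29.5 FPKM in control (0.39 ± 0.08, adjusted p = 0.00126). Its call with CXCL14 siRNA (39.9, 34.4 and 38.5 FPKM; 0.25 ± 0.08, adjusted p = 0.0183) overlapped control and was lost without control library 2 or 3 or CXCL14 library 1 or 3 (0.0564 to 0.0851). EIF3H was at 29.3, 27.3 and 29.7 FPKM with CXCL14 siRNA, against 23.4, 22.5 and 22.3 FPKM in control (0.34 ± 0.06, adjusted p = 0.000300). With APOE siRNA it was 0.20 ± 0.07 higher (adjusted p = 0.0201), a call lost without control library 2 or 3 or APOE library 3 (0.0659 to 0.146; 0.13 on the log2 scale without APOE library 3). Among the members listed above with a run across their start, EEF1A1, EEF2, EIF3D, EIF3F, EIF3K and EIF3M were called higher with CXCL14 siRNA. EIF2S3 and its copy EIF2S3B were called lower there, and EEF1B2 and EIF2A were not called. With APOE siRNA EEF1A1, EEF2, EIF3F and EIF3K of these members were called higher, and EIF2A and EIF2S3 lower. With ATF3 siRNA EEF1B2, EIF3D, EIF3F and EIF3K were called higher and none of them lower. A link between start run and change was not tested.

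**Figure D4:**
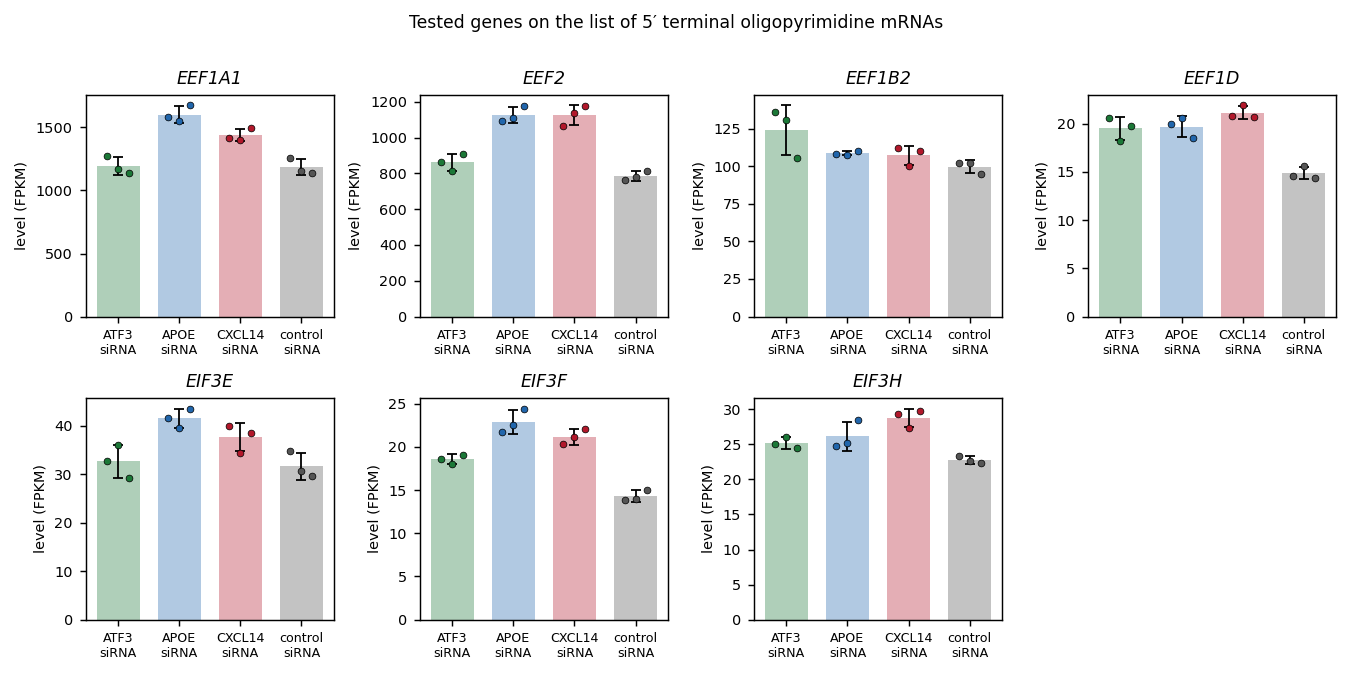
Level in FPKM of the 7 tested genes on the TOP list in each library (points), with group mean (bar) and SD (error bar, n = 3), for ATF3, APOE, CXCL14 and control siRNA. EEF2 is at 1064 to 1177 FPKM with APOE and CXCL14 siRNA, above the 763 to 815 FPKM of control, and EEF1B2 has its highest mean with ATF3 siRNA.

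EIF5A, the factor that carries the modified amino acid hypusine, rose with ATF3 siRNA (257, 250 and 251 FPKM) and APOE siRNA (253, 252 and 266 FPKM), against 196, 208 and 213 FPKM in control. Neither group overlapped control (0.30 ± 0.06 and 0.32 ± 0.06; adjusted p = 0.00132 and 0.000182). With CXCL14 siRNA it was at 210, 217 and 222 FPKM (0.08 ± 0.06, adjusted p = 0.265). Of the coding bases of EIF5A 37.2%, and of all its exon bases 8.56%, overlap a gene on the opposite strand, GPS2. EIF5A2, the less widely expressed form, fell with APOE siRNA (2.22, 2.07 and 2.04 FPKM) and CXCL14 siRNA (2.20, 1.94 and 1.75 FPKM), against 3.06, 2.94 and 3.04 FPKM in control (-0.51 ± 0.10 and -0.62 ± 0.10; adjusted p = 0.000644 and 7.15e-05). The copy EIF5AL1 was called higher in all 3 groups, by 0.45 ± 0.09, 0.48 ± 0.09 and 0.29 ± 0.09 (adjusted p = 0.00319, 0.000651 and 0.0150). It shares 11.6% of its 50-base windows with EIF5A and is uncertain for that reason, and its call with CXCL14 siRNA was lost without control library 1 (0.0683) or CXCL14 library 3 (0.0760).

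Among the enzymes that modify elongation factors, EEF2K, the kinase that switches eEF2 off, fell with CXCL14 siRNA. It was at 4.16, 4.12 and 3.62 FPKM with CXCL14 siRNA, against 5.03, 5.78 and 5.76 FPKM in control (-0.48 ± 0.08, adjusted p = 8.00e-05). With ATF3 siRNA (-0.03 ± 0.08, adjusted p = 0.825) and APOE siRNA (-0.02 ± 0.08, adjusted p = 0.855) it overlapped control, and APOE over CXCL14 siRNA differed by 0.46 ± 0.08 (adjusted p = 0.000117). EEF1AKMT4, a lysine methyltransferase of eEF1A, rose with APOE siRNA (5.41, 4.63 and 5.95 FPKM) and CXCL14 siRNA (4.66, 4.63 and 4.98 FPKM), against 2.69, 3.60 and 3.03 FPKM in control (0.78 ± 0.13 and 0.62 ± 0.13; adjusted p = 0.000195 and 0.000951). Of its coding bases 62.7%, and of all its exon bases 26.3%, lie in other genes annotated on the same strand, such as the read-through gene EEF1AKMT4-ECE2. The value of EEF1AKMT4 is uncertain for that reason. EEF1AKMT1, an enzyme of the same kind, was 0.66 ± 0.20 lower with APOE siRNA (log2 fold change -0.66, adjusted p = 0.0117; 0.0581 without control library 2). EEF1AKMT3 was 0.46 ± 0.18 higher with CXCL14 siRNA (adjusted p = 0.0447), and the call was lost without control library 2 or 3, ATF3 library 2 or any CXCL14 library (0.0526 to 0.140).

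Between the siRNAs, ATF3 over APOE siRNA called 16 members higher and 14 lower, against a background of 38.2% of all genes called (20.3% higher and 17.9% lower). ATF3 over CXCL14 siRNA called 13 higher and 12 lower, against a background of 53.7% (28.4% higher and 25.3% lower). APOE over CXCL14 siRNA called 13 higher and 14 lower, against a background of 55.5% (28.9% higher and 26.6% lower). These splits depended on the scaling: with library size alone, which shifted the median of all genes to -0.10 and -0.11, ATF3 over CXCL14 siRNA gave 9 higher and 23 lower and APOE over CXCL14 siRNA 10 higher and 24 lower. The direct differences of EIF2S3, EIF2B5 and EIF4EBP2 are given above. EIF2S3B, whose reads may be split with EIF2S3, was higher with ATF3 than with CXCL14 siRNA (1.75 ± 0.22, adjusted p = 4.33e-06) and higher with APOE than with CXCL14 siRNA (1.20 ± 0.23, adjusted p = 0.000288). The low and overlapping gene EIF4E3 was lower with APOE than with CXCL14 siRNA (-1.60 ± 0.19, adjusted p = 1.85e-06) and higher with ATF3 than with APOE siRNA (1.02 ± 0.19, adjusted p = 0.000523). Further direct calls were EIF4E2, lower with ATF3 than with CXCL14 siRNA (-0.49 ± 0.07, adjusted p = 1.96e-05), EIF5A2, higher with ATF3 than with CXCL14 siRNA (0.76 ± 0.10, adjusted p = 7.60e-06), EIF4G2, higher with APOE than with CXCL14 siRNA (0.46 ± 0.06, adjusted p = 1.44e-05), and EIF3D, lower with APOE than with CXCL14 siRNA (-0.45 ± 0.06, adjusted p = 1.27e-05).

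Genes of the surrounding pathway were taken from lists of known translation genes outside the EIF and EEF names. Of 11 eIF2 kinases, phosphatase subunits and their regulators, 3 fell with ATF3 siRNA, 2 rose and 5 fell with APOE siRNA, and 3 rose and 3 fell with CXCL14 siRNA. The share called was 27.3%, 63.6% and 54.5%, beside 20.4%, 44.8% and 55.8% of all genes, so with CXCL14 siRNA it was at the background. With ATF3 siRNA the fall of EIF2AK1 lost its call without control library 1 or 2 or ATF3 library 1 or 2 (adjusted p 0.0682 to 0.0821). The fall of EIF2AK4 lost it without control library 1 or ATF3 library 2 (0.0641 to 0.0715). PPP1R15A, the stress-induced subunit that directs a phosphatase to eIF2, averaged 20.7 ± 1.4 FPKM with APOE siRNA and 41.4 ± 3.9 FPKM in control (SD, n = 3 each; -0.996 ± 0.09 SE, adjusted p = 1.33e-07). Its constitutive counterpart PPP1R15B averaged 12.1 ± 0.41 FPKM with CXCL14 siRNA and 18.7 ± 0.10 FPKM in control (-0.63 ± 0.06, adjusted p = 1.00e-07), and rose with APOE siRNA (0.25 ± 0.06, adjusted p = 0.00199). EIF2AK3, the kinase of the endoplasmic reticulum stress response, rose with CXCL14 siRNA (6.87 ± 0.31 FPKM, against 3.97 ± 0.31 FPKM; 0.79 ± 0.09, adjusted p = 1.10e-06). EIF2AK2, the kinase that senses double-stranded RNA, fell with APOE siRNA (21.1 ± 1.8 FPKM, against 29.4 ± 1.5 FPKM; -0.48 ± 0.09, adjusted p = 0.000265).

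Of 24 initiation helpers with other names, 3 rose and 3 fell with ATF3 siRNA, 6 rose and 5 fell with APOE siRNA, and 8 rose and 6 fell with CXCL14 siRNA. The shares called, 25.0%, 45.8% and 58.3%, were near the 20.4%, 44.8% and 55.8% of all genes. DHX29, among the falls with ATF3 siRNA, lost its call without control library 1 or 2 or ATF3 library 3 (adjusted p 0.0784 to 0.138). PDCD4, an inhibitor of the eIF4A helicase, averaged 12.9 ± 1.2 FPKM with ATF3 siRNA and 12.5 ± 1.3 FPKM with APOE siRNA, against 7.28 ± 0.68 FPKM in control (0.83 ± 0.10 and 0.78 ± 0.10; adjusted p = 2.47e-05 and 8.90e-06). LARP1, the repressor that binds TOP mRNAs, averaged 64.4 ± 3.0 FPKM with ATF3 siRNA and 65.5 ± 3.4 FPKM with CXCL14 siRNA, against 45.0 ± 1.9 FPKM in control (0.52 ± 0.06 and 0.54 ± 0.06; adjusted p = 3.72e-05 and 2.44e-06). PABPC1, the cytoplasmic poly-A binding protein that touches eIF4G, rose with APOE siRNA (0.42 ± 0.06, adjusted p = 2.89e-05). MTOR, the kinase upstream of the 4E-binding proteins, fell with APOE siRNA (8.06 ± 0.88 FPKM, against 10.3 ± 0.067 FPKM; -0.35 ± 0.08, adjusted p = 0.00198), as did MKNK1, which phosphorylates eIF4E (-0.63 ± 0.09, adjusted p = 1.96e-05). DENR, a recycling and reinitiation factor, fell with CXCL14 siRNA (-0.57 ± 0.08, adjusted p = 2.81e-05).

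Of 8 termination, recycling and ribosome rescue genes, 1 rose with ATF3 siRNA, 1 rose and 3 fell with APOE siRNA, and 1 rose and 5 fell with CXCL14 siRNA. That is 12.5%, 50.0% and 75.0% called, beside 20.4%, 44.8% and 55.8% of all genes. The rise with ATF3 siRNA, that of PELO, lost its call without control library 1 or 2 or ATF3 library 1 or 3 (adjusted p 0.0561 to 0.120). NEMF, which acts on split ribosomes that hold a stalled chain, averaged 1.60 ± 0.14 FPKM with CXCL14 siRNA and 3.88 ± 0.32 FPKM in control (-1.28 ± 0.09, adjusted p = 6.08e-09). The release factor gene GSPT1 fell with APOE siRNA (-0.53 ± 0.07, adjusted p = 8.23e-06) and CXCL14 siRNA (-0.38 ± 0.07, adjusted p = 0.000150). Of 9 genes for the hypusine of eIF5A and the diphthamide of eEF2, 1 rose with ATF3 siRNA, 4 rose and 1 fell with APOE siRNA, and 6 rose and 1 fell with CXCL14 siRNA, or 11.1%, 55.6% and 77.8% called against that same background. The rise with ATF3 siRNA, that of DPH7, lost its call without control library 1 or 2 or ATF3 library 2 (adjusted p 0.0692 to 0.0869). DPH2, a diphthamide enzyme subunit, averaged 22.2 ± 1.4 FPKM with CXCL14 siRNA and 13.6 ± 0.54 FPKM in control (0.71 ± 0.07, adjusted p = 3.20e-07), whereas DNAJC24, another gene of that pathway, fell (0.684 ± 0.092 FPKM, against 1.59 ± 0.19 FPKM; -1.22 ± 0.14, adjusted p = 2.01e-06; -0.61 on the log2(FPKM + 1) scale). Of 10 tested mitochondrial translation factors, 1 rose with ATF3 siRNA, 2 rose and 1 fell with APOE siRNA, and 3 rose and 1 fell with CXCL14 siRNA. The shares called, 1 of 10 with ATF3 siRNA, 30.0% with APOE siRNA and 40.0% with CXCL14 siRNA, lay below the 20.4%, 44.8% and 55.8% of all genes. GFM2, among the rises with APOE siRNA, lost its call without control library 1 or 2 or APOE library 1 or 3 (adjusted p 0.0514 to 0.0568). MTIF2, the mitochondrial initiation GTPase, averaged 5.16 ± 0.26 FPKM with APOE siRNA and 12.1 ± 0.59 FPKM in control (-1.23 ± 0.08, adjusted p = 4.35e-09), and TUFM, the mitochondrial counterpart of eEF1A, rose with CXCL14 siRNA (0.46 ± 0.07, adjusted p = 1.69e-05).

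Promoters from 250 bases before to 50 bases after the RefSeq start were searched on both strands, and 49 tested members had an entry. The ATF and CREB motif TGACGTCA was found in 1 of them, 2.04%, against 3.73% of 10032 tested genes. That member was EEF2, whose motif lies 13 bases before the start and is shown in capitals with its flanks: agctgagtgtTGACGTCAgcgttctctt. The shorter core TGACG, which the full motif contains, was present in 46.9% of members and 40.4% of tested genes. The E-box CACGTG was present in 24.5% of members and 12.6% of tested genes, and the amino acid response element TGATGNAAN in 1 member, EIF4E3, and 2.76% of tested genes.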

How the data were processed

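Bulk RNA was measured in 12 libraries of 4 groups. Reads were processed with HISAT2 2.0.5 and featureCounts 1.5.0-p3 on hg38, per the submitters' processing notes, with no strand setting named. The authors deposited raw counts and FPKM per gene and library. Columns were matched to samples by target prefix and replicate number. All 67 members have equal coordinates and lengths in GENCODE 29. Here counts were filtered (filterByExpr), TMM-scaled and fitted by edgeR 4.0.16 (R 4.3.3) with 1 term per group over all 12 libraries; the SE is the log2 fold change over the square root of F. The test was checked on simulated data. Printed levels are TMM-scaled CPM per kilobase, 1.01 to 1.03 times the deposited FPKM.

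In each comparison with control up to 12 called members per direction with the smallest adjusted p were named, plus 11 fixed genes; in direct comparisons up to 4; from pathway lists up to 2. Other called members were named after their values were seen. EIF1AY, a Y-linked gene, is counted without a level. Members and lists were chosen with earlier results of these data known. Alternatives were other scalings and filters, DESeq2 1.42.0, limma 3.58.1 (limma-voom, and on log2 of the deposited FPKM plus 1 or 0.1), only the groups compared, a replicate block and leaving out each library.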

Additional observations from a re-analysis of the deposited data

How the results depend on the processing

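The 12 counts of called members stayed within 1.5 times of the reported value under all alternatives, except the following. With ATF3 siRNA against control 6 members, not 3, were called lower without a filter, with the stricter filter, with library size alone, with the size factors or the Wald test of DESeq2, and with the replicate block. Without a filter 2 of the 3 first calls were kept, and EIF3CL was among the genes added. With library size alone 23 were lower for ATF3 over CXCL14 siRNA and 24 for APOE over CXCL14 siRNA. Leaving out a library gave 8 to 13 higher and 2 to 6 lower for ATF3 siRNA, 16 to 20 and 13 to 16 for APOE siRNA, and 17 to 22 and 12 to 15 for CXCL14 siRNA. For ATF3 over APOE siRNA it gave 13 to 17 higher and 11 to 13 lower, for ATF3 over CXCL14 siRNA 11 to 17 and 10 to 14, and for APOE over CXCL14 siRNA 12 to 15 and 13 to 16. Same-numbered libraries correlated at -0.02 to 0.23 in their deviations, above 0.1 in 11 of 18 pairs, and differently numbered ones at -0.24 to 0.10, above 0.1 in 1 of 36. Of the 12 libraries 10 correlated best with one of their own number, which is a hint from the data and not from the labels. The labels name no pairing and not all same-numbered pairs were above 0.1, so the fit without the block was kept. The block moved no other count past 1.5 times. If libraries of the same number were handled together, the printed SE and p-values do not take that into account.

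Changes of sign were seen only for values near 0 that did not pass the test. EEF1A1 with ATF3 siRNA was -0.00297 with DESeq2 size factors, -0.00296 with the Wald test, -0.0342 with library size alone, -0.0110 with no filter, -0.00577 with the stricter filter, -0.00202 with both FPKM fits and -0.00471 with only the groups compared, and ran from -0.0478 to 0.0536 when a library was left out. EIF4EBP1 with CXCL14 siRNA was 0.00038 with DESeq2 size factors, 0.060 with library size alone, 0.019 with the stricter filter, 0.00048 with the Wald test and -0.0431 to 0.0313 when a library was left out. With library size alone EIF4E with CXCL14 siRNA was 0.041 and EIF2B4 0.0051. Leaving out a library gave EIF4A1 values of -0.0716 to 0.162 with ATF3 siRNA, EEF2K values of -0.0947 to 0.00273 with ATF3 siRNA and -0.0853 to 0.0122 with APOE siRNA, and EIF4E values of -0.0434 to 0.0208 with APOE siRNA and -0.0914 to 0.0411 with CXCL14 siRNA. The cause of these moves was not tested.

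On the log2(FPKM + 1) scale, where the pseudocount shrinks changes of low genes, EIF2S3B was -0.68 with CXCL14 siRNA and 0.78 for ATF3 over CXCL14 siRNA, DNAJC24 was -0.61 and EEF1AKMT3 0.26 with CXCL14 siRNA, and EIF4A1 was 0.26 with APOE siRNA. The fall of CXCL14 with its own siRNA missed the threshold there (adjusted p = 0.328) and with limma-voom (0.0538), and with the stricter filter and with only the groups compared the gene was not tested. Settings other than a left-out library also ended calls. With ATF3 siRNA these were the calls of EIF3D, EIF3I, EIF2S1 and PELO. With APOE siRNA they were those of EIF1, EIF3H, EIF3I, EIF4A1 and GFM2, and with CXCL14 siRNA those of EIF3M, EIF5, EIF5AL1 and EEF1AKMT3. Low counts limit what can be said of EEF1A2, EIF4E3 and EIF2S3B.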
